A study of Mus musculus with 9 samples.

Results

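The 10 genes Trem2, Gpnmb, Lgals3, Ms4a7, Cd68, Cd14, Lyz2, Clec4n, Clec4d and Itgax are macrophage genes that mark inflammatory and lipid-associated states, and they were taken by symbol from 22036 annotated genes counted in mouse left ventricle. All 10 were found, and all 10 passed the filter on low counts that left 14160 genes to test. Bulk messenger RNA of wild-type mice was sequenced in 3 groups with 3 biological replicates each. ND+AAV-CON mice were fed ND, taken to be a normal diet, and carried a control adeno-associated virus (AAV). HFD+AAV-CON mice were fed HFD, taken to be a high-fat diet, with the same control vector. HFD+AAV-BCKDK mice had that diet and an AAV named for BCKDK, the kinase that inhibits the branched-chain keto acid dehydrogenase. All animals carried a vector, so no group is free of AAV. Age, sex, diet length, vector promoter, serotype and dose were not given in the sources used here.

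Macrophages clear dead cells, lipoproteins and debris, and in the heart a long-lived resident population is joined by cells derived from blood monocytes when the tissue is stressed. Macrophages that take up much lipid turn on a shared set of genes around TREM2, a surface receptor for lipids and lipoproteins that signals through the adaptor TYROBP. CD68 and lysozyme mark lysosome-rich phagocytes, CD14 and the C-type lectin receptors sense microbial and damage-derived ligands, and CD11c, the product of Itgax, marks inflammatory macrophages as well as dendritic cells.

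Promoter sequence is shown for 4 of the genes, 2 that hold a match to the AP-1 motif and 2 that do not. AP-1 proteins are nuclear targets of the JNK and p38 kinases named in the title of the series. Each stretch holds 150 bases, from 160 to 11 bases before the RefSeq start site, read 5′ to 3′ on the strand of the gene from the RefSeq tables for GRCm38.p6. Capitals mark motif matches. They come from chr11:69666181-69666330 on the minus strand for Cd68, chr7:128129390-128129539 on the plus strand for Itgax, chr17:48346241-48346390 on the plus strand for Trem2 and chr6:123261947-123262096 on the plus strand for Clec4d. None of the 4 stretches overlaps an exon of its own gene in the GENCODE vM21 annotation. Exons of other genes were not checked.
Cd68: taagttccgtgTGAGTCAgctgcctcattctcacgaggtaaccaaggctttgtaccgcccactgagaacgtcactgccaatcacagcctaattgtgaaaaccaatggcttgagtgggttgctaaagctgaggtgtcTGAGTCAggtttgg
Itgax: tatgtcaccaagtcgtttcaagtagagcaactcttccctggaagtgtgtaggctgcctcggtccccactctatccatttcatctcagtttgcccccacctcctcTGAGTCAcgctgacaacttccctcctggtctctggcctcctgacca
Trem2: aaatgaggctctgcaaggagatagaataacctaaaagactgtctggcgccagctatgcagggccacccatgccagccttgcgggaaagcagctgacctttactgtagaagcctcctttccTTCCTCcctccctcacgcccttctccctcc
Clec4d: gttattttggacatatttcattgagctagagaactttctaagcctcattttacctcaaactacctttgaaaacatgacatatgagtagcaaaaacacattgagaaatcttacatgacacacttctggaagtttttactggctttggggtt

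The AP-1 motif TGACTCA, which reads TGAGTCA on the other strand, was searched on both strands of windows from 250 bases before to 50 bases after the start. It was present in 3 of the 8 genes whose windows were used here, against 5.20% of 32851 windows of the same length. The 8 genes had 9 windows, so the counts of genes and the shares of windows differ in unit. Counted from the start, the match in Cd68 lay at -149 and again at -24, in Itgax at -56 and in Gpnmb at 9. The core GAGGAA bound by PU.1, the macrophage lineage factor, reads TTCCTC on the other strand. It was found in 4 of the 8 genes (Trem2, Ms4a7, Cd68 and Clec4d) and in 28.3% of all windows. Trem2 has it at -40, as printed above, and Clec4d has it at -240, 8 and 40, outside the printed stretch. The E-box CACGTG of the MiT/TFE lysosomal factors was in none of the 8 genes and in 7.15% of windows, and the related CATGTG was in 2, Clec4d and Ms4a7, and in 14.2% of windows. Cd14 and Clec4n were not analysed here for promoter sequence. Each match describes these letters only.

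Each library held between 32803233 and 45483044 counts in annotated genes. Bckdk itself was at 111 to 126 CPM in the HFD+AAV-BCKDK libraries, above the 37.1 to 65.0 CPM of HFD+AAV-CON (log2 1.24, SE 0.17, adjusted p = 0.0016). CPM are the usual depth-scaled counts, taken over TMM-scaled library sizes, and every adjusted p below is from edgeR's quasi-likelihood test with Benjamini-Hochberg adjustment over all genes tested. Genes were called at an adjusted p of 0.05. Mitochondrially encoded genes took 26.1% to 39.9% of the counts of HFD+AAV-CON libraries. They took 42.1% to 45.7% under the normal diet and 45.0% to 47.6% with the BCKDK vector. Of the 3 HFD+AAV-CON libraries, replicate 3 stood apart. Loci without a gene name held 1.02% of its counts, against 4.75% to 6.01% in the other libraries. For 64.1% of genes, and for 8 of the 10 macrophage genes, its level lay between those of the other HFD+AAV-CON libraries, whereas each library of the 3 groups other than this one lay in between for 14.8% to 37.1% of genes. Whether it is an independent sample is not settled by these values, so the calls of the 10 genes, the list counts and the count ratios of gene pairs are given with and without it.

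All 10 genes rose in HFD+AAV-CON over ND+AAV-CON, by log2 1.28 to 3.33 with a median of 2.01, and in all 10 the groups did not overlap. Over all 14160 genes the median was -0.0018 and 43.3% were called, 22.7% higher and 20.6% lower, while 28.2% were higher without overlap. All 10 then fell in HFD+AAV-BCKDK relative to HFD+AAV-CON, by 1.14 to 3.92 on the log2 scale with a median of -1.90, again without overlap. Over all genes that comparison had a median of -0.01 and 38.2% called, 17.3% higher and 20.9% lower, while 27.3% were lower without overlap. The 2 comparisons share the HFD+AAV-CON libraries. Without HFD+AAV-CON replicate 3 all 10 genes were still called in both, with log2 changes of 1.18 to 3.34 for the diet and -3.91 to -1.15 for the vector. The largest adjusted p was then 0.033 and 0.028, both for Trem2. Of all genes, 16.2% were then called higher and 12.0% lower with the diet, and 6.87% and 13.01% with the vector. In whole ventricle, more macrophages and more RNA of these genes per macrophage cannot be told apart.

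**Figure D1:**
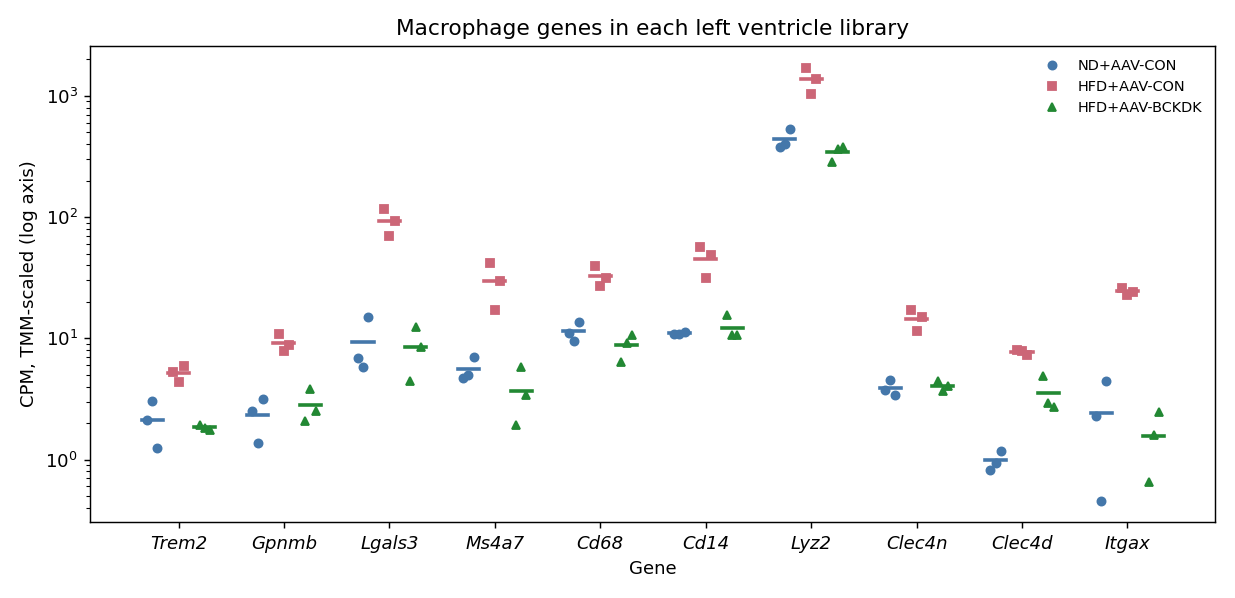
Level of each of the 10 genes in every library, in CPM on a log axis, with 3 points per group and a line at the group mean. The HFD+AAV-CON points lie above both other groups for each gene, and Clec4d is the gene whose HFD+AAV-BCKDK points also lie clearly above ND+AAV-CON.

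Trem2 (ENSMUSG00000023992, chr17:48346401-48354147, plus strand, mm10) encodes the lipid-sensing receptor. Its level was 2.13, 3.02 and 1.24 CPM in ND+AAV-CON, 5.28, 4.33 and 5.86 CPM in HFD+AAV-CON, and 1.95, 1.84 and 1.76 CPM in HFD+AAV-BCKDK, each in order of replicate. Every HFD+AAV-CON library was above every other library, and the HFD+AAV-BCKDK libraries lay within the ND+AAV-CON range. The group means were 2.13 ± 0.89, 5.16 ± 0.77 and 1.85 ± 0.09 CPM (SD, n = 3 each). Trem2 had the smallest diet change of the 10, log2 1.28 (SE 0.29, adjusted p = 0.0074), and fell by 1.48 with the BCKDK vector (SE 0.29, adjusted p = 0.0058). These levels rest on few reads, 49 to 329 per library.

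Gpnmb (ENSMUSG00000029816, chr6:49036546-49070929, plus strand) encodes a lysosome-associated glycoprotein of lipid-laden macrophages and of pigment cells. It was at 2.52, 1.38 and 3.13 CPM in ND+AAV-CON, 10.8, 7.89 and 8.80 CPM in HFD+AAV-CON, and 2.08, 3.82 and 2.49 CPM in HFD+AAV-BCKDK. The high-fat control libraries were all above the rest, and the other groups overlapped each other. Gpnmb rose by log2 1.97 with the diet (SE 0.31, adjusted p = 0.0017) and fell by 1.72 with the vector (SE 0.31, adjusted p = 0.0041). Melanocyte markers, which could also carry Gpnmb, summed to 4.05 to 6.44 CPM in ND+AAV-CON, 3.98 to 6.70 CPM in HFD+AAV-CON and 7.78 to 8.76 CPM in HFD+AAV-BCKDK. None of the 3 tested was called in either comparison, with or without HFD+AAV-CON replicate 3.

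Lgals3 (ENSMUSG00000050335, chr14:47367751-47386160, plus strand) encodes galectin-3, a secreted lectin that binds galactosides and is made by activated macrophages. It was at 6.94, 5.78 and 15.1 CPM in ND+AAV-CON and at 116.6, 69.9 and 93.0 CPM in HFD+AAV-CON. With the BCKDK vector it was at 4.44, 12.5 and 8.52 CPM. The high-fat control group was far above both others, which overlapped. Lgals3 rose by log2 3.33 with the diet (SE 0.44, adjusted p = 0.00085) and fell by 3.46 with the vector (SE 0.44, adjusted p = 0.0013). Lgals3 ranked 139 of 14160 genes for the size of its diet increase, next to Itgax at 138.

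Itgax (ENSMUSG00000030789, chr7:128129547-128150657, plus strand) encodes the integrin alpha chain CD11c. Its level was 2.30, 0.459 and 4.45 CPM in ND+AAV-CON, 26.3, 22.6 and 24.2 CPM in HFD+AAV-CON, and 0.649, 1.59 and 2.47 CPM in HFD+AAV-BCKDK. The high-fat control libraries were close together, with a coefficient of variation of 7.50%, whereas the ND+AAV-CON libraries spread by 83.1%. The diet difference was 10.1-fold (log2 3.33, SE 0.61, adjusted p = 0.0029) and reached log2 4.14 without ND+AAV-CON replicate 3, the highest of its group. The vector difference was the largest of the 10 genes, 15.1-fold lower (log2 -3.92, SE 0.64, adjusted p = 0.0026).

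Ms4a7 (ENSMUSG00000024672, chr19:11321039-11336146, minus strand) encodes a tetraspan membrane protein of macrophages. It was at 4.73, 4.94 and 6.97 CPM in ND+AAV-CON, 41.8, 17.3 and 29.6 CPM in HFD+AAV-CON, and 1.91, 5.76 and 3.40 CPM in HFD+AAV-BCKDK. It was the gene with the widest spread among high-fat control libraries, a coefficient of variation of 41.4%, and the lowest of them was still above every other library. Ms4a7 rose by log2 2.41 (SE 0.40, adjusted p = 0.0019) and fell by 3.01 (SE 0.41, adjusted p = 0.0015).

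Cd68 (ENSMUSG00000018774, chr11:69664213-69666153, minus strand) encodes a lysosomal membrane glycoprotein of the LAMP family, used widely to stain macrophages. Its level was 11.04, 9.48 and 13.7 CPM in ND+AAV-CON, 39.6, 27.0 and 31.4 CPM in HFD+AAV-CON, and 6.35, 9.23 and 10.7 CPM in HFD+AAV-BCKDK. The high-fat control libraries were the highest, and the other groups overlapped. Cd68 rose 2.87-fold (log2 1.52, SE 0.21, adjusted p = 0.0011) and was 3.72-fold lower with the vector (log2 -1.89, SE 0.22, adjusted p = 0.0012).

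Lyz2 (ENSMUSG00000069516, chr10:117277331-117282321, minus strand) encodes the lysozyme of macrophages and neutrophils. It was at 377, 404 and 528 CPM in ND+AAV-CON, 1711, 1034 and 1386 CPM in HFD+AAV-CON, and 284, 366 and 375 CPM in HFD+AAV-BCKDK. Lyz2 rose 3.15-fold (log2 1.66, SE 0.21, adjusted p = 0.00076) and was 4.03-fold lower with the vector (log2 -2.01, SE 0.21, adjusted p = 0.0012). Its HFD+AAV-BCKDK libraries lay below all ND+AAV-CON libraries, as did those of 15.1% of genes, and the difference was not called (log2 -0.35, SE 0.20, adjusted p = 0.43). The near copy Lyz1 lies 5475 bases away, and 15.4% of the 50-base stretches of the Lyz2 transcript also occur in that of Lyz1, so the split of reads between them depends on counting rules, which were not given in the sources used here.

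Cd14 (ENSMUSG00000051439, chr18:36725067-36726798, minus strand) encodes the co-receptor that passes lipopolysaccharide to Toll-like receptors. The ND+AAV-CON libraries were nearly equal at 10.9, 10.9 and 11.2 CPM. HFD+AAV-CON libraries were at 56.6, 31.4 and 48.6 CPM, and HFD+AAV-BCKDK libraries at 15.5, 10.7 and 10.6 CPM. The high-fat control libraries were all above the rest, and HFD+AAV-BCKDK replicate 1 was the highest outside that group. Cd14 rose by log2 2.05 (SE 0.22, adjusted p = 0.00050) and fell by 1.90 (SE 0.22, adjusted p = 0.0012).

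Clec4n and Clec4d lie beside each other on chromosome 6 and encode the lectin receptors Dectin-2 and MCL, which signal through the adaptor FcRγ. Clec4n (ENSMUSG00000023349, chr6:123229843-123247021, plus strand) was at 3.72, 4.54 and 3.38 CPM in ND+AAV-CON, 17.1, 11.4 and 15.1 CPM in HFD+AAV-CON, and 4.44, 3.68 and 4.01 CPM in HFD+AAV-BCKDK. The last group lay within the range of the first. Clec4n had the smallest standard error of the 10 and rose by log2 1.91 (SE 0.18, adjusted p = 0.00035) and fell by 1.85 (SE 0.18, adjusted p = 0.0011).

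Clec4d (ENSMUSG00000030144, chr6:123262111-123275265, plus strand, 15089 bases from Clec4n) followed another pattern. It was at 0.820, 0.945 and 1.19 CPM in ND+AAV-CON, 7.94, 7.92 and 7.32 CPM in HFD+AAV-CON, and 4.92, 2.93 and 2.73 CPM in HFD+AAV-BCKDK. The 3 groups were separate, with the BCKDK libraries in between. Clec4d rose 7.82-fold with the diet (log2 2.97, SE 0.26, adjusted p = 0.00031) and was 2.20-fold lower with the vector (log2 -1.14, SE 0.23, adjusted p = 0.0069), the smallest vector change of the 10.

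**Figure D2:**
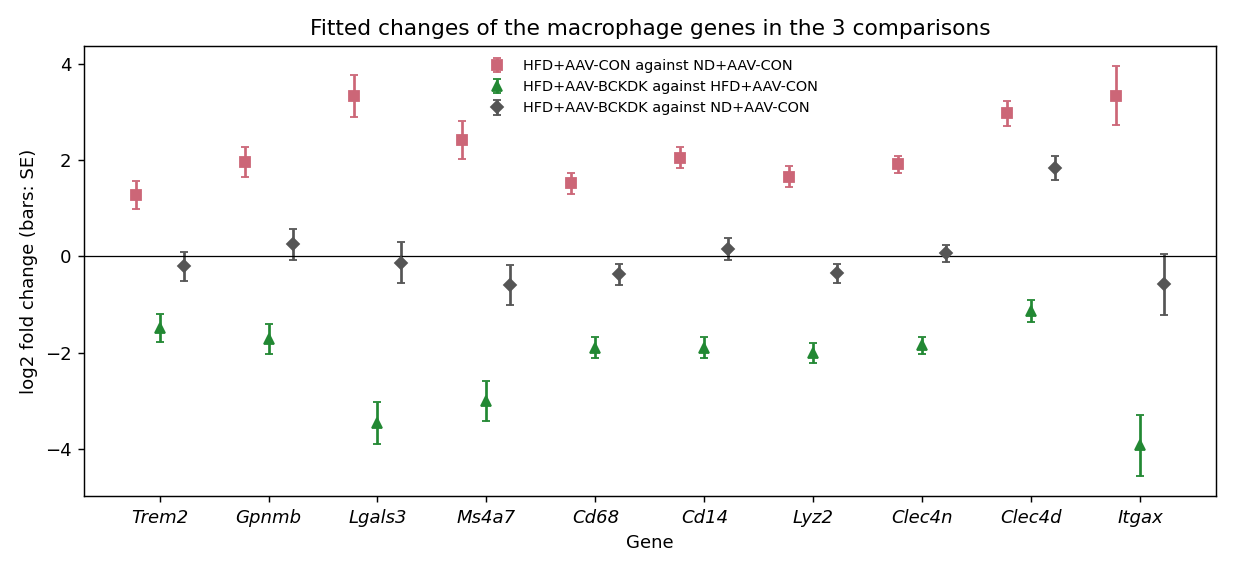
Fitted log2 fold change of each gene in the 3 comparisons, with bars of 1 SE. The diet changes lie between 1.28 and 3.33 and the vector changes between -3.92 and -1.14. In the comparison of HFD+AAV-BCKDK with ND+AAV-CON, Clec4d lies at 1.83 and the other genes between -0.60 and 0.25.

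Set against ND+AAV-CON, where diet and vector differ together, HFD+AAV-BCKDK had 1 of the 10 genes called, Clec4d, against 2.45% of all genes called in either direction, 1.18% higher and 1.27% lower. Clec4d was 3.56-fold above ND+AAV-CON (log2 1.83, SE 0.26, adjusted p = 0.0097), from 144, 83 and 115 counts against 30, 35 and 47. Its groups did not overlap, which held for 12.6% of genes in that direction, and it ranked 41 of 14160 genes from the highest. The call ended without ND+AAV-CON replicate 1 (log2 1.72, adjusted p = 0.058) or ND+AAV-CON replicate 2 (log2 1.80, adjusted p = 0.058), and stood without HFD+AAV-CON replicate 3 (log2 1.85, adjusted p = 0.027). Of the rise in mean CPM with the diet, 37.7% remained in Clec4d under the vector, and between -12.4% and 6.69% in the other 9 genes. Those 9 had log2 differences from -0.60 (Ms4a7, SE 0.41, adjusted p = 0.52) to 0.25 (Gpnmb, SE 0.32, adjusted p = 0.76), and a p above the threshold does not show equal levels.

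The 2 neighbours were compared within each library, where depth cancels. Per 100 Clec4n counts, the ND+AAV-CON libraries held 22.1, 20.8 and 35.1 Clec4d counts, those of HFD+AAV-CON held 46.4, 69.5 and 48.3, and those with the BCKDK vector held 110.8, 79.8 and 68.0. Both high-fat groups were above ND+AAV-CON without overlap, by log2 1.09 and 1.74 (exact two-sided permutation p = 0.1 for each, the smallest that 3 against 3 allows). The high-fat groups overlapped each other (log2 difference 0.65, exact permutation p = 0.2). Without HFD+AAV-CON replicate 3 the diet difference was 1.17, again without overlap. Clec4e, the next gene of the cluster at 6523 bases from Clec4d and the receptor Mincle, was singled out for its position. It rose by log2 3.39 (SE 0.72, adjusted p = 0.0056), fell by 2.34 (SE 0.67, adjusted p = 0.024) and differed from ND+AAV-CON by 1.05 (SE 0.75, adjusted p = 0.54), at no more than 2.60 CPM in any library. Its vector change was not called without HFD+AAV-CON replicate 3 (log2 -2.47, adjusted p = 0.057).

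Clec4d is also made by neutrophils. Neutrophil markers summed to 3.80 to 5.13 CPM in ND+AAV-CON, 14.4 to 17.0 CPM in HFD+AAV-CON and 5.62 to 13.1 CPM in HFD+AAV-BCKDK. Csf3r alone was at 1.07 to 1.92 CPM in ND+AAV-CON and 10.5, 7.75 and 10.1 CPM in HFD+AAV-CON, most of that rise. Of the 8 tested, 3 rose with the diet (Csf3r, Il1r2 and Mmp8) and 5 were not called, beside 22.7% of all genes higher. With the vector 2 fell, Csf3r and Il1r2, beside 20.9% of all genes lower. Without HFD+AAV-CON replicate 3, 3 rose and 1 fell. Set against ND+AAV-CON, all 8 were higher in HFD+AAV-BCKDK, by a median of log2 1.47, and none was called. Mmp8, a neutrophil collagenase, was 3.24 higher without overlap (adjusted p = 0.13), beside 1.83 for Clec4d, and 12.6% of all genes were higher without overlap. Its levels were near 0, at 0 to 0.055 CPM in ND+AAV-CON and 0.212 to 0.649 CPM in HFD+AAV-BCKDK. S100a8 was 1.79 and Cxcr2 1.61 higher (adjusted p = 0.23 and 0.22). Of the 4 markers too low to test, Ly6g and Ngp had no read in 7 of 9 libraries and Camp none in 8. Within HFD+AAV-BCKDK, Clec4d was highest in replicate 1, as was Mmp8, at 0.649 CPM against 0.212 and 0.237 CPM. The neutrophil sum was highest in replicate 3, as was each other tested marker. The part of neutrophils in the Clec4d result was not tested.

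**Figure D3:**
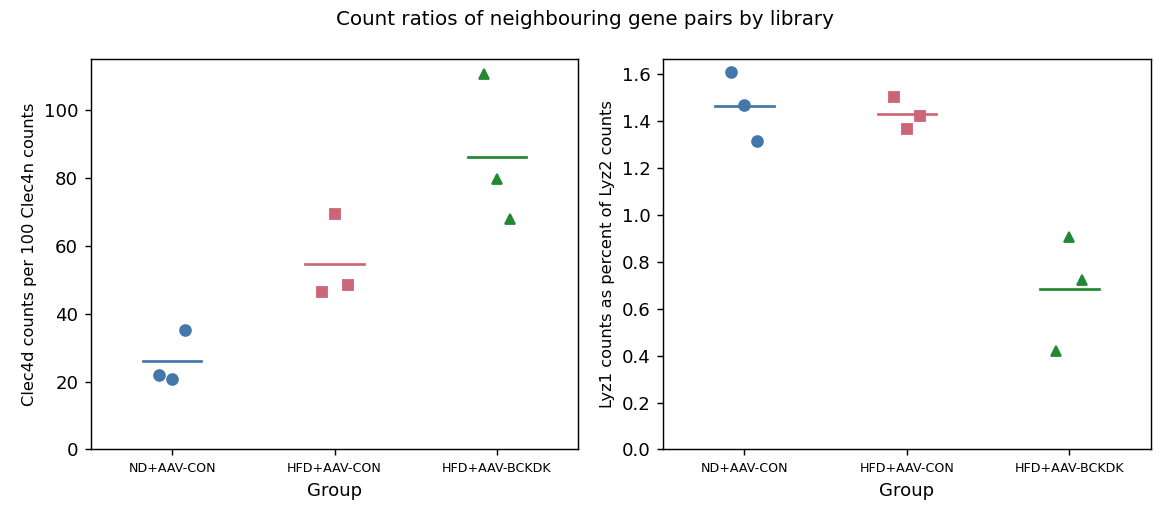
Left, Clec4d counts per 100 Clec4n counts, and right, Lyz1 counts as a percent of Lyz2 counts, in each library with a line at the group mean. The Clec4d ratio is lowest in ND+AAV-CON, at 20.8 to 35.1, and the Lyz1 ratio is lowest in HFD+AAV-BCKDK, at 0.420% to 0.908%.

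Within the HFD+AAV-CON group, replicate 1 was the highest library for 9 of the 10 genes and replicate 2 the lowest for 9. The exceptions were Trem2, highest in replicate 3, and Clec4d, lowest there. The ratio of replicate 1 to replicate 2 ran from 1.003 in Clec4d and 1.16 in Itgax to 2.42 in Ms4a7. Replicate 1 also had the lowest share of mitochondrially encoded counts, 26.1% against 39.9% in replicate 2. Cardiomyocyte markers summed to 17093 to 29091 CPM in HFD+AAV-CON, below 36546 to 38117 CPM in ND+AAV-CON and 31928 to 34591 CPM in HFD+AAV-BCKDK. Fibroblast markers summed to 1897 to 4518 CPM, above 1326 to 1408 and 1159 to 1284 CPM in those groups. The part of these shifts in the macrophage gene results was not tested.

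The label was compared with markers of the cell types that could carry these genes. All 12 general macrophage markers rose with the diet and fell with the vector, with medians of log2 2.37 and -2.37. Of these 12 rose and 11 fell without HFD+AAV-CON replicate 3. Among those with the smallest p, Spi1, which encodes PU.1, rose by 2.53 (adjusted p = 0.00050), and Ctss, a lysosomal protease, rose by 3.00 (adjusted p = 0.00087). Csf1r, the receptor for the macrophage growth factor, fell by 1.28 with the vector (adjusted p = 0.0012). Their summed level was 171 to 292 CPM in ND+AAV-CON, 719 to 1328 CPM in HFD+AAV-CON and 146 to 215 CPM in HFD+AAV-BCKDK. The sum of the 10 genes was 422 to 589, 1233 to 2033 and 327 to 422 CPM in the same order. Most of that sum was Lyz2, at 377 to 528, 1034 to 1711 and 284 to 375 CPM, so it says little of the others.

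Of 14 markers of resident cardiac macrophages, 3 rose, 5 fell and 6 were not called with the diet, with a median of log2 -0.46, beside 22.7% of all genes higher and 20.6% lower. The share that rose is near that of all genes. With HFD+AAV-CON replicate 3 left out, 1 rose and 2 fell. Mrc1, the mannose receptor, rose by 0.80 (adjusted p = 0.0023) and Siglec1 by 0.57 (adjusted p = 0.022, and 0.057 without that library), whereas Vsig4, a complement receptor, fell by 1.94 (adjusted p = 0.0033) and Cbr2 by 1.15 (adjusted p = 0.012). Their sum was 329 to 339 CPM in ND+AAV-CON, 334 to 342 CPM in HFD+AAV-CON and 310 to 355 CPM in HFD+AAV-BCKDK, which adds opposite shifts. Gas6 and Mrc1 together were at 150 to 159 CPM under the normal diet and 172 to 241 CPM in HFD+AAV-CON, whereas the other 12 summed to 174 to 182 CPM and 92.6 to 171 CPM. With the vector, 3 of the 14 rose and 3 fell, near the 17.3% and 20.9% of all genes, and 0 and 2 without HFD+AAV-CON replicate 3.

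Monocyte markers rose in 6 of 10 and dendritic cell markers in 8 of 10 tested, with none called lower. Under the vector 6 and 7 of them fell. These counts were 5 and 7 for rises and 4 and 6 for falls without HFD+AAV-CON replicate 3. Plac8 rose by log2 3.36 (adjusted p = 0.0024) among monocyte markers, and Ccr7, a lymph node homing receptor, by 3.42 (adjusted p = 0.00086) among dendritic cell markers. Both lists summed higher in every HFD+AAV-CON library, at 166 to 289 CPM for monocytes against 84.1 to 108 CPM elsewhere, and 68.3 to 106.8 CPM for dendritic cells against 29.1 to 43.0 CPM. Ace and Vcan made up most of the monocyte sum. Their means were 62.6 and 15.5 CPM in ND+AAV-CON, and 97.6 and 55.8 CPM in HFD+AAV-CON. Ly6c2, another monocyte marker, overlapped between these groups and was not called with the diet (log2 1.29, adjusted p = 0.069). Zbtb46, the highest dendritic cell marker in ND+AAV-CON, was not called either (log2 -0.13, adjusted p = 0.47). Since Itgax is shared by dendritic cells and Lyz2 by monocytes, the part of these cells in those results was not tested.

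**Figure D4:**
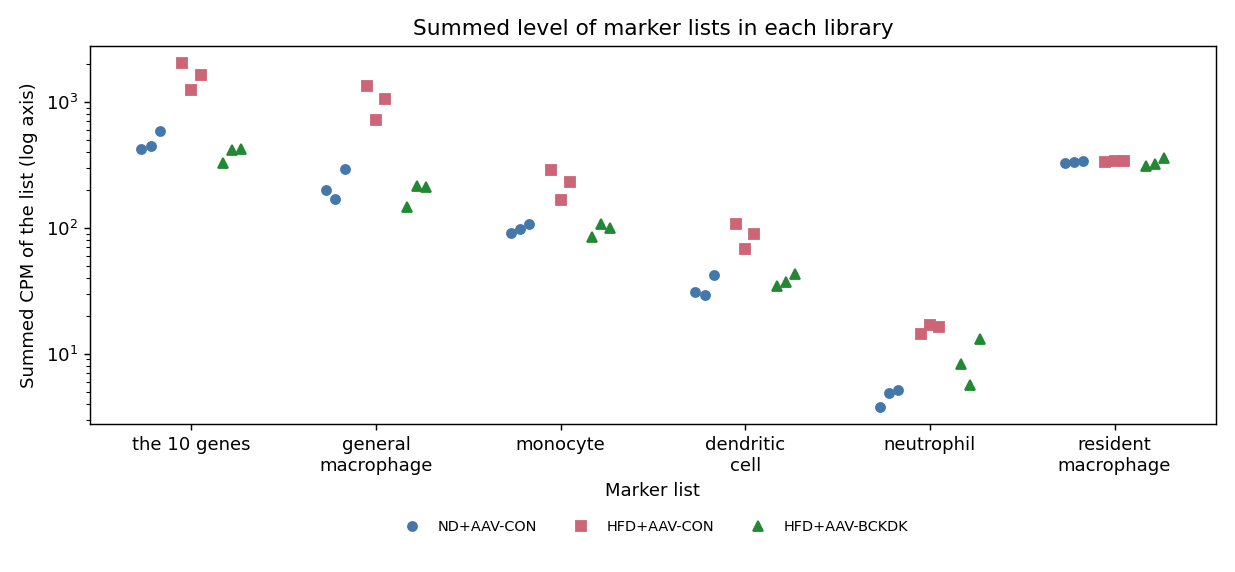
Summed CPM of the 10 genes and of 5 marker lists in every library, on a log axis. Lyz2 makes up most of the sum of the 10 genes, and Ace and Vcan most of the monocyte sum. Csf3r carries most of the rise of the neutrophil sum from ND+AAV-CON to HFD+AAV-CON. The sums of the 10 genes and of the general macrophage, monocyte, dendritic cell and neutrophil lists are highest in HFD+AAV-CON, and the resident macrophage sum lies between 310 and 355 CPM in all 9 libraries, where Gas6 and Mrc1 are higher and the sum of the other 12 lower in HFD+AAV-CON than in ND+AAV-CON.

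Each of the 10 genes was divided by the geometric mean of the 12 general macrophage markers in the same library, to set its change against their mean change. That geometric mean was 8.33 to 14.2 CPM in ND+AAV-CON, 35.3 to 68.6 CPM in HFD+AAV-CON and 6.14 to 12.4 CPM in HFD+AAV-BCKDK. With the diet, 3 genes were higher on this ratio without overlap, Itgax (log2 1.58), Lgals3 (1.15) and Clec4d (0.71), against 1.17% of all genes. Cd68 (-0.77) and Lyz2 (-0.64) were lower without overlap, as 90.6% of all genes were. Trem2, Gpnmb, Ms4a7, Cd14 and Clec4n overlapped between groups, from -0.93 in Trem2 to 0.06 in Ms4a7. Each exact two-sided permutation p without overlap was 0.1, the smallest possible, and none of the 10 passed adjustment over the 10 genes. The 12 markers themselves rose by log2 0.89 to 3.70 with the diet, a range that holds the rises of Itgax (3.33), Lgals3 (3.33) and Clec4d (2.97).

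With the vector, Itgax (log2 -1.77), Lgals3 (-1.17) and Ms4a7 (-0.67) were lower on this ratio without overlap, against 2.33% of all genes. Trem2 (0.91) and Lyz2 (0.39) were higher without overlap, as 90.8% of all genes were. The other 5 overlapped, from 0.47 in Cd68 to 1.20 in Clec4d. The 12 markers themselves changed by log2 -3.31 to -0.95 with the vector, a range that holds Ms4a7 (-3.01) but not Lgals3 (-3.46) or Itgax (-3.92). The choice of reference mattered. Against Csf1r alone, the general marker with the smallest diet change, the diet ratio was above 0 for all 10 genes, for example 0.64 in Cd68 and 0.77 in Lyz2. The vector ratio was then below 0 for Trem2 (-0.20) and Lyz2 (-0.72). The signs for Itgax, Lgals3 and Clec4d with the diet held in 8 alternatives. These were Csf1r alone, Adgre1 alone and each ND+AAV-CON or HFD+AAV-CON library left out in turn. Csf1r and Adgre1 rose by log2 0.89 and 2.52, less than each of these genes, so they could not reverse the signs. Cx3cr1, the general marker with the largest diet change, rose by 3.70, more than each of them, and was not tried alone.

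Genes of the pathways around these receptors were counted from lists that leave the 10 out. In TREM2 and ITAM signalling, 19 of 23 tested genes rose with the diet and 19 fell with the vector, with none called in the opposite direction, and 17 and 17 without HFD+AAV-CON replicate 3. The adaptor Tyrobp rose by log2 1.78 and fell by 1.86 (adjusted p = 0.00087 and 0.0013), the FcRγ gene Fcer1g rose by 2.26 and fell by 2.32 (adjusted p = 0.00077 and 0.0013), and Inpp5d, the phosphatase SHIP1, rose by 1.98 and fell by 1.77 (adjusted p = 0.00065 and 0.0015). These adaptors are also among the general macrophage markers. C-type lectin receptor genes rose in 11 of 17 tested and fell in 11 under the vector, and in 10 and 9 of 18 without that library. Mrc2, a collagen receptor also made by fibroblasts, had the smallest p, at log2 1.38 and -1.33 (adjusted p = 0.00069 and 0.0013).

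Of 24 genes of the lipid-associated programme, 13 rose, 6 fell and 5 were not called with the diet, with a median of log2 0.38, beside 22.7% of all genes higher and 20.6% lower. With the vector 4 rose and 14 fell, beside 17.3% and 20.9% of all genes. The shares that fell with the diet and rose with the vector are near those of all genes. Without HFD+AAV-CON replicate 3, 13 rose and 4 fell with the diet, and 4 rose and 11 fell with the vector. Itgb2, the integrin chain that pairs with CD11c, rose by 2.74 and fell by 2.98 (adjusted p = 0.00075 and 0.0013). Abcg1, a cholesterol exporter, rose by 2.05 (adjusted p = 0.0012), and Npc2, a lysosomal cholesterol carrier, fell by 1.32 with the vector (adjusted p = 0.0013). The lipid-uptake genes Lpl, Cd36 and Fabp4, picked after their values were seen because they went the other way, fell by 1.13, 0.75 and 1.04 with the diet (adjusted p = 0.0032, 0.0091 and 0.0019). They rose by 0.85, 0.80 and 0.75 with the vector (adjusted p = 0.014, 0.0094 and 0.010). Cardiomyocytes and endothelial cells also make these 3.

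In CD14 and Toll-like receptor signalling, 21 of 28 genes rose and 1 fell with the diet, and 20 fell and 1 rose with the vector. Leaving out HFD+AAV-CON replicate 3 gave 18 that rose and 16 that fell, with 1 the other way in each comparison. Tlr2 rose by log2 2.40 and fell by 2.48 (adjusted p = 0.00091 and 0.0014). Tlr4, the main partner of CD14 and named for that reason, rose by 0.41 (SE 0.11, adjusted p = 0.016, and 0.060 without that library), and its partner Ly96 was not called (0.49, SE 0.26, adjusted p = 0.15). Hsp90b1, the chaperone that folds Toll-like receptors and integrins, rose by 1.23 (adjusted p = 0.00026), fell by 0.54 (adjusted p = 0.0047) and stayed 0.69 above ND+AAV-CON (adjusted p = 0.012). No other gene of this list was called in that last comparison.

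Leukocyte integrins and their partners rose in 13 of 16 and fell in 13 of 16, also without HFD+AAV-CON replicate 3. Itgam, the CD11b chain, rose by log2 2.28 and fell by 2.25 (adjusted p = 0.00075 and 0.0013). The MS4A family rose in 7 of 10 tested and fell in 7, and in 5 and 7 without that library. Ms4a6d had the smallest p in both, at 2.09 and -1.74 (adjusted p = 0.000545 and 0.0014), and Ms4a4c changed more, at 2.54 and -3.54 (adjusted p = 0.0023 and 0.0015). Galectins other than Lgals3 were split, since Lgals3bp, a galectin-binding protein kept on the list, rose by 1.38 (adjusted p = 0.00052), Lgals9 rose by 0.63 (adjusted p = 0.00076), Lgals4 fell by 1.497 (adjusted p = 0.020, and 0.067 without that library) and Lgals1 was not called (0.19, adjusted p = 0.19). The lysosomal membrane genes Lamp1 and Lamp2, family members of Cd68, were not called with the diet (0.13 and 0.14, adjusted p = 0.21 and 0.24).

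Among MiT/TFE and lipid-sensing regulators, 9 of 16 rose with the diet and 9 fell with the vector, and 7 and 5 without HFD+AAV-CON replicate 3. Egr2, a zinc-finger factor of activated myeloid cells, rose by log2 3.58 and fell by 2.86 (adjusted p = 0.00065 and 0.0017). Bhlhe40 rose by 1.12 (adjusted p = 0.00069), was not called with the vector (-0.37, adjusted p = 0.059) and stayed 0.76 above ND+AAV-CON (adjusted p = 0.027, and 0.057 without that library). The MiT/TFE factors, which drive lysosomal genes, were singled out for that role. Mitf and Tfeb were not called with the diet (-0.42 and 0.16, adjusted p = 0.62 and 0.20). Tfe3 rose by 0.60 and fell by 0.63 (adjusted p = 0.021 for each), and Tfec rose by 1.87 and fell by 1.63 (adjusted p = 0.0091 and 0.019). Without HFD+AAV-CON replicate 3, Tfe3 was called in neither (adjusted p = 0.054 and 0.062) and Tfec was not called with the vector (adjusted p = 0.054).

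Among the 10 genes themselves, Pearson's r of log2 CPM over the 9 libraries ran from 0.57 (Ms4a7 with Clec4d) to 0.99 (Cd68 with Lyz2), with a median of 0.89 over 45 pairs, and 0.86 without HFD+AAV-CON replicate 3. The points share the group means, so these values describe the group pattern and carry no test. Outside the 10, the genes closest to their mean standardised profile were Mki67, Ctsz, Efhd2, Tnfrsf1b, Rhog, B4galt5, Tcirg1, Parp14, Cfl1 and Ctsb, with r from 0.993 to 0.997 over 9 libraries. Of these, 8 were again among the 10 closest without HFD+AAV-CON replicate 3. Mki67, which encodes the proliferation antigen Ki-67, was at 4.81 to 6.01 CPM in ND+AAV-CON, 14.2 to 22.6 CPM in HFD+AAV-CON and 4.85 to 5.49 CPM in HFD+AAV-BCKDK.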

How the data were processed

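Left ventricle messenger RNA of 9 mice was extracted with Trizol and sequenced from VAHTS mRNA-seq v2 libraries, per the labels' protocols. Per the submitters' processing notes, HISAT2 2.0.5 and mm10 were used. How reads were counted, on which annotation and by strand or not, was not given in the sources used here. Values deposited by the authors are raw read counts of each gene. Of 26178 entries, 4142 unnamed loci (1.02% to 6.01% of counts) were left out. Genes were filtered with filterByExpr, scaled with TMM and tested in edgeR 4.0.16 (R 4.3.3) by quasi-likelihood with 1 coefficient per group over all 9 libraries, with Benjamini-Hochberg adjustment at 0.05. The SE was taken from the F statistic, and the code was tested on simulated counts. Ratios were tested by exact permutation over libraries. Alternatives were other scalings, filters, DESeq2 1.42.0, limma 3.58.1 (voom), a replicate block, 2 groups alone, no mitochondrial genes and each library left out. List counts, pair ratios, correlations and the most alike genes without HFD+AAV-CON replicate 3 were added after seeing the data. The 10 genes, lists, motifs and tests were chosen with earlier results of these data known. All 10 genes are named, plus up to 4 of each list with the smallest p in the diet and in the vector comparison, the 10 most alike and any gene whose choice is explained. Coordinates are from GENCODE vM21 (GRCm38, the assembly of mm10), and promoters from RefSeq GRCm38.p6. Libraries of 1 group differed beyond sampling noise (chi-square per degree of freedom of 15.4 to 273).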

Additional observations from a re-analysis of the deposited data

How the results depend on the processing

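For each of the 10 genes, direction and call held in all 19 alternatives for the diet and for the vector (190 of 190 values each, largest adjusted p 0.033 and 0.030 in the tool of each alternative). Over all genes, 6134, 5410 and 347 genes were called for the diet, the vector and HFD+AAV-BCKDK against ND+AAV-CON. With 1 library left out these counts ran from 4050 to 7325, from 2847 to 6978 and from 43 to 744, and the diet and vector counts were lowest without HFD+AAV-CON replicate 3. The third count was 136 with total-count scaling, 902 with DESeq2, 107 with the replicate block and 873 with the 2 groups alone. The replicate block gave 5614 and 4922 calls for diet and vector and changed no call of the 10 genes, and same-numbered libraries correlated from -0.22 to 0.19 in their deviations, so the numbers are not taken as pairs. Total-count scaling moved the median of all genes by log2 0.40, -0.47 and -0.08 in the 3 comparisons. It gave 5986 higher and 934 lower calls for the diet (3215 and 2919 with TMM), 398 and 6867 for the vector (2444 and 2966) and 51 and 85 for the third (167 and 180). The 10 genes stayed at log2 1.70 to 3.75 and -4.38 to -1.59 under it.

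Against ND+AAV-CON, 0 to 1 of the 10 genes were called by edgeR with 1 library left out (0 without ND+AAV-CON replicate 1 or 2), and 9 of 190 values changed sign, all in genes not called. The ranges over libraries left out were -0.48 to 0.13 for Trem2, -0.031 to 0.52 for Gpnmb, -0.51 to 0.41 for Lgals3, -0.052 to 0.25 for Cd14, -0.031 to 0.19 for Clec4n and -1.11 to 0.23 for Itgax. Of 240 ratios to general macrophage markers, 15 changed sign. With Csf1r alone as reference the diet values were 0.48 for Trem2, 1.16 for Gpnmb, 0.64 for Cd68, 1.13 for Cd14, 0.77 for Lyz2 and 1.02 for Clec4n, and the vector values were -0.20, -0.48, -0.64, -0.60, -0.72 and -0.56 in the same order. With Adgre1 alone the diet value of Ms4a7 was -0.095. With 1 library left out it ran from -0.014 to 0.15, and the vector value of Cd14 ran from -0.0053 to 0.78. The cause was not tested. Depth limits Clec4d, Trem2 and Itgax most, with 30, 49 and 17 counts in their lowest libraries.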

Other observations

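Lyz1, the near copy of Lyz2, had fewer counts relative to Lyz2 in the HFD+AAV-BCKDK libraries than in the other groups. As a share of Lyz2 counts, Lyz1 counts were 1.61%, 1.47% and 1.31% for the ND+AAV-CON libraries. They were 1.503%, 1.37% and 1.42% for HFD+AAV-CON libraries and 0.420%, 0.908% and 0.721% for those with the BCKDK vector. All 3 HFD+AAV-BCKDK libraries were below the other 6. The log2 difference was -1.14 from HFD+AAV-CON and -1.17 from ND+AAV-CON (exact two-sided permutation p = 0.1 for each, the smallest that 3 against 3 allows), and -0.03 between the control-vector groups (exact permutation p = 0.9). Without HFD+AAV-CON replicate 3 the vector difference was -1.14 and still without overlap. In edgeR's quasi-likelihood test Lyz1 rose by log2 1.65 with the diet (SE 0.31, adjusted p = 0.0031), fell by 3.04 with the vector (SE 0.33, adjusted p = 0.0012) and differed from ND+AAV-CON by -1.39 (SE 0.33, adjusted p = 0.064). The pair was examined after its values were seen. The HFD+AAV-BCKDK libraries held only 35, 94 and 114 Lyz1 counts. The split of reads between the near copies depends on counting rules, which were not given in the sources used here.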
